A study of Mesocricetus auratus with 6 samples.

Results

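Messenger RNA of 10 antiviral effector genes, *Mx1*, *Mx2*, *Ifit2*, *Ifit3*, *Rsad2*, *Oas2*, *Oas3*, *Bst2*, *Eif2ak2* and *Adar*, was examined in cortex, suprachiasmatic nucleus (SCN) and liver of Syrian hamsters. The genes were taken by symbol, and all 10 were found among the 31593 gene rows of the RNA-seq tables. The 6 libraries came from wild-type LVG hamsters and from *duper* hamsters, which are mutant in *Cry1* (a deletion in exon 4 shifts its reading frame), a repressor of the circadian clock. Animals were raised in a light-dark cycle. Tissue was taken at CT15, 15 h into the circadian cycle, without any infection or interferon treatment named in the labels. The lighting at sampling was not given in the sources used here. There was 1 deposited sample per genotype and tissue, called a library here. Each cortex or SCN library held RNA of 4 hamsters mixed beforehand, and the liver values merged the reads of 4 sequenced libraries per genotype. All 4 *duper* hamsters were female, whereas 2 females and 2 males made up the wild-type set, so genotype and sex cannot be fully told apart. Animal ages were not given in the sources used here.

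Cells that sense viral RNA or DNA secrete type I and type III interferons, whose receptors signal through JAK kinases to switch on interferon-stimulated genes. The proteins made from these genes block different steps of viral growth. MX proteins are dynamin-like GTPases that trap viral nucleocapsids, IFIT proteins bind foreign RNA and hinder its translation, and viperin, the product of *Rsad2*, makes a chain-terminating nucleotide. OAS enzymes make 2′-5′ oligoadenylates that activate RNase L. Tetherin, from *Bst2*, holds budding virions at the cell surface. PKR, from *Eif2ak2*, halts translation when it binds double-stranded RNA. ADAR1, from *Adar*, edits adenosine to inosine in double-stranded RNA and so keeps the cell's own RNA from being sensed. *Adar* is transcribed from a constitutive promoter as well as from an interferon-inducible one, and brain is known for abundant RNA editing.

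Without an applied stimulus, the 10 genes had very unequal levels, and the order of levels differed between brain and liver. The levels are given in TPM, a measure of abundance that corrects for the length of a transcript and the size of the library. *Adar* was the most abundant member in both brain tissues and *Bst2* in liver. The members' summed level was 127.6 TPM (wild type) and 143.8 TPM (*duper*) in cortex, with 152.7 and 203.8 TPM for SCN and 179.6 and 192.8 TPM for liver. *Adar* made up 47.6% to 67.5% of that sum in the 4 brain libraries and 4.22% to 4.76% in liver. *Bst2* made up 4.62% to 7.14% of it in the brain libraries and 62.2% to 67.7% in liver.

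**Figure D1:**
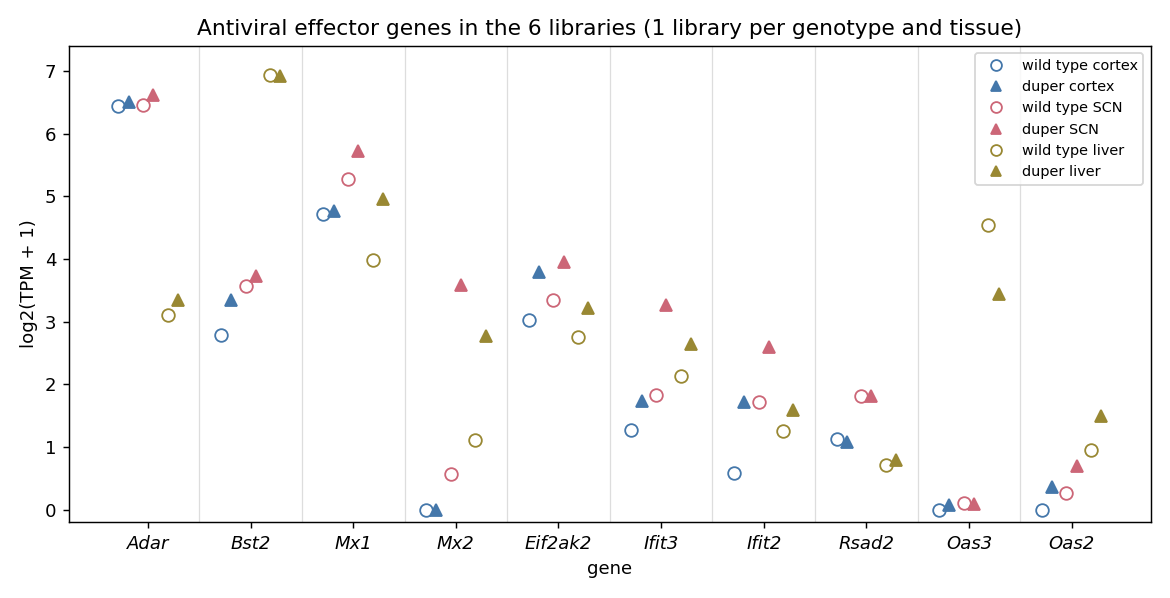
Level of each antiviral effector gene in the 6 libraries, as log2(TPM + 1) on the vertical axis. Circles are wild type and triangles *duper*, each point is 1 library, and colours mark the tissue. *Adar* lay higher in all 4 brain libraries than in liver, whereas *Bst2* and *Oas3* lay higher in liver.

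*Adar* had 86.1 TPM (wild type) and 89.4 TPM (*duper*) in cortex, with 86.6 and 97.1 TPM for SCN and 7.58 and 9.17 TPM for liver. The brain and liver libraries did not overlap, and the mean TPM over the 4 brain libraries was 10.7-fold that over the 2 liver libraries. *Bst2* had the opposite pattern, with 5.89 and 9.19 TPM in the wild-type and *duper* cortex, 10.9 and 12.3 TPM in the SCN and 121.5 and 119.9 TPM in the liver. Its mean TPM in liver was 12.6-fold that in brain. *Oas3*, whose product makes long 2′-5′ oligoadenylates, had 0 and 0.0507 TPM in the cortex, 0.0767 and 0.0647 TPM in the SCN, and 22.3 and 9.88 TPM in the liver. These brain values rested on 0 to 5 estimated counts per library against 4037 and 2215 in liver, so *Oas3* was at or near the counting floor of 3 counts in every brain library. The albumin gene *Alb*, a hepatocyte marker, stood in the brain libraries at 0.0391% to 0.104% of its liver level in the same genotype. The corresponding percentages were 0% to 0.655% for *Oas3* and 4.85% to 10.3% for *Bst2*.

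*Oas2* had 0 and 0.288 TPM in the wild-type and *duper* cortex, 0.204 and 0.613 TPM in the SCN and 0.946 and 1.83 TPM in the liver. The liver libraries were the highest, but the level was low everywhere, and the cortex values rested on 0 and 3 counts. *Rsad2* was also low, with 1.17 and 1.11 TPM in the cortex, 2.54 and 2.53 TPM in the SCN and 0.648 and 0.730 TPM in the liver. For *Rsad2* the genotypes were nearly equal within each tissue, while the SCN stood above the cortex and the cortex above the liver. *Eif2ak2* lay within a narrower span, with 7.19 and 12.9 TPM in the cortex, 9.19 and 14.5 TPM in the SCN and 5.74 and 8.26 TPM in the liver. In each tissue the *duper* library held the higher *Eif2ak2* level, although the ranges of the genotypes over the tissues overlapped.

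The IFIT genes lay lower than *Eif2ak2*. *Ifit2* had 0.498 and 2.31 TPM in the wild-type and *duper* cortex, 2.27 and 5.05 TPM in the SCN and 1.40 and 2.03 TPM in the liver. *Ifit3*, its neighbour in the RefSeq annotation of the BCM_Maur_2.0 assembly, had 1.41 and 2.33 TPM in the cortex, 2.56 and 8.62 TPM in the SCN and 3.40 and 5.28 TPM in the liver. For both genes the *duper* SCN was the highest library and the wild-type cortex the lowest.

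*Mx1* was the second most abundant member by the mean of each tissue, with 25.3 and 26.3 TPM in the wild-type and *duper* cortex, 37.9 and 52.0 TPM in the SCN and 14.8 and 29.9 TPM in the liver. The row named *Mx2* had no counts in either cortex library, and it had 0.491 and 11.0 TPM in the SCN and 1.16 and 5.79 TPM in the liver. Taken by tissue means, the order in cortex ran from *Adar* through *Mx1*, *Eif2ak2*, *Bst2*, *Ifit3*, *Ifit2*, *Rsad2* and *Oas2* to *Oas3* and *Mx2*. In SCN it was *Adar*, *Mx1*, *Eif2ak2*, *Bst2*, *Mx2*, *Ifit3*, *Ifit2*, *Rsad2*, *Oas2* and *Oas3*. In liver it was *Bst2*, *Mx1*, *Oas3*, *Adar*, *Eif2ak2*, *Ifit3*, *Mx2*, *Ifit2*, *Oas2* and *Rsad2*. Of the 9 neighbouring pairs in each order, 5 overlapped between their 2 libraries in each tissue and 4 did not. *Adar* against *Mx1* and *Mx1* against *Eif2ak2* were apart in both brain tissues, as was *Bst2* against *Mx1* in liver.

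The transcript tables showed that the *Mx* rows share reads. The deposited *Mx2* row equalled a single transcript, NM_001281635.1, of 2356 bases, which the RefSeq table lists under *Mx1*, and that table has no *Mx2*. Whole reads that fit several transcripts are divided by Kallisto into fractions. The estimated counts of *Mx1* were fractional in 6 of 6 libraries, while those of *Mx1*, *Mx2* and LOC101844121 together were whole in 6 of 6, within 0.03 of a count. LOC101844121 is a protein-coding gene near *Mx1* in the same annotation, with *Fam3b* and *Bace2* between them. The 3 rows together held 190 and 334 counts in the wild-type and *duper* cortex, 1576 and 644 in the SCN and 1989 and 5240 in the liver. Their summed level was 27.5 and 32.2 TPM in the cortex, 46.1 and 79.7 TPM in the SCN and 21.7 and 45.8 TPM in the liver. *Mx2* took at most 13.8% of that sum, in the *duper* SCN, and 1.06% in the wild-type SCN. Differences in the *Mx2* row are therefore uncertain, and the 3-row sum, chosen after the values were seen, is given beside them. The counts of *Rsad2* were also fractional, in 5 of 6 libraries, and those of the other 7 members were whole in all 6.

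Of the 4 *Adar* transcripts, those of 5912 and 5835 bases held 100% (wild type) and 88.6% (*duper*) of the *Adar* level in cortex, and 90.8% and 95.5% of it in SCN. In the wild-type liver they held 17.0%, and the transcripts of 5896 and 5818 bases held the other 83.0%. In the *duper* liver, the 5896 and 5818 base transcripts held 100%. The predominant pair of transcripts thus differed between all 4 brain libraries and both liver libraries. These shares are Kallisto's estimates among transcripts of nearly the same length and were not tested.

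**Figure D2:**
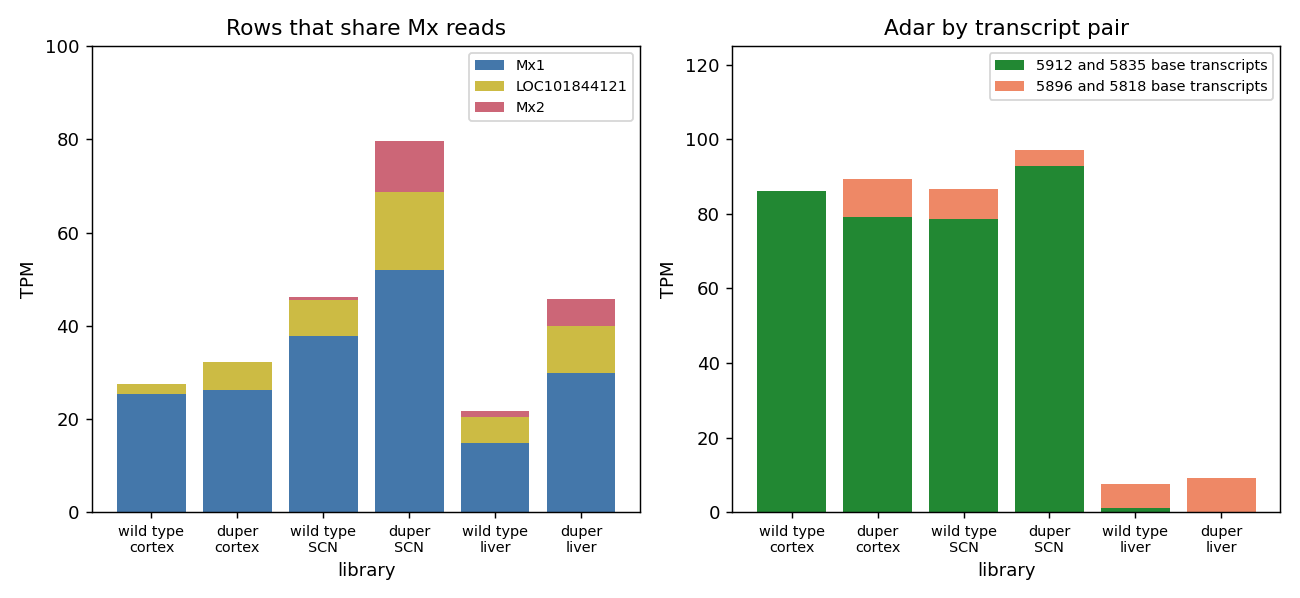
Left, stacked bars of the TPM of *Mx1*, LOC101844121 and *Mx2*, the rows among which reads were divided, in the 6 libraries. Right, stacked bars of the TPM of the *Adar* transcript pairs, where the 5912 and 5835 base pair made up 88.6% to 100% in brain libraries and at most 17.0% in liver.

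The tissues were compared with edgeR's quasi-likelihood test on rounded estimated counts, in a model with tissue and genotype, and p-values were adjusted by Benjamini-Hochberg over 18275 tested genes. Calls required an adjusted p below 0.05 together with a log2 fold change beyond 0.58 in either direction. The test covered 9 members, since *Oas3* had too few counts outside liver to pass the filter. Each tissue had 2 libraries, 1 of each genotype, which came from the same animals across tissues. The p-values thus measure only the spread between these libraries.

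Liver against cortex gave the most calls among the members, with 7 of 9 higher and 1 of 9 lower in liver, where 31.9% of all genes were called higher and 33.6% lower. *Bst2* was higher in liver by 5.46 on the log2 scale (SE 0.18, adjusted p = 7.70e-07) and *Oas2* by 5.09 (SE 0.75, adjusted p = 0.000863). *Adar* was lower, with a log2 fold change of -1.83 (SE 0.16, adjusted p = 5.33e-05). *Ifit3* had a log2 fold change of 2.85 (SE 0.43), *Ifit2* of 2.01 (SE 0.44), *Mx1* of 1.30 (SE 0.28) and *Eif2ak2* of 1.11 (SE 0.24), all called higher. *Rsad2* did not pass, at 0.88 (SE 0.42, adjusted p = 0.102). For *Oas2*, cortex held 3 counts in all, and the ratio of mean TPM was 9.61 (95% counting interval 3.26 to 46.8). The *Mx2* call set liver against a cortex at 0, so its fitted fold is no measure of size. Its mean TPM over both genotypes in liver was 9.43-fold a floor of 3 counts per cortex library. That floor covers counting error but not the division of reads among the *Mx* rows, so it gives no lower bound. By genotype, its liver level was 1.16 TPM (wild type) and 5.79 TPM (*duper*), against cortex floors of 0.443 and 0.293 TPM.

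The direction of the small liver differences turned with the scaling. TMM, which scales libraries to a common bulk of genes, gave factors of 0.539 and 0.606 in liver against 1.24 to 1.41 in brain. On log2(TPM + 1) the median of all genes in liver against cortex was -1.15, against -0.02 with TMM. *Mx1*, *Rsad2* and *Eif2ak2* were below 0 in liver against cortex on TPM and above 0 with TMM, and relative to the median of all genes they were above it on both scales. The calls of *Mx1*, *Ifit2* and *Eif2ak2* in liver against cortex were lost by library size and on log2(TPM + 1), where *Ifit2* stood at 0.89 and 0.28. *Bst2* and *Oas2* were above 0 and *Adar* below 0 under TMM, DESeq2's size factors, library size and TPM alike. Their sizes differed with the scale. With TMM and on log2(TPM + 1), *Bst2* was at 5.46 and 3.86, *Oas2* at 5.09 and 1.05, and *Adar* at -1.83 and -3.25.

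Against SCN, 5 of 9 members were called higher in liver and 1 lower, where 31.9% of all genes were called higher and 32.9% lower. *Bst2* was higher by 4.83 (SE 0.17, adjusted p = 9.81e-07), *Oas2* by 3.59 (SE 0.58, adjusted p = 0.00132), and *Adar* had a log2 fold change of -1.90 (SE 0.16, adjusted p = 4.68e-05). Those 3 kept their direction under each scaling. *Mx2*, *Ifit3* and *Eif2ak2* were called higher with TMM at 1.57 (SE 0.54), 1.41 (SE 0.36) and 0.82 (SE 0.23), but were below 0 on log2(TPM + 1), where limma called *Eif2ak2* lower (-0.67, adjusted p = 0.0133). *Mx1* at 0.52 (SE 0.27) and *Ifit2* at 0.57 (SE 0.38) were not called with TMM, and on log2(TPM + 1) limma called both lower in liver, at -1.04 (adjusted p = 0.00622) and -0.72 (adjusted p = 0.0449). *Rsad2* was below 0 on every scale. It was not called with TMM, at -0.31 (SE 0.38), or by DESeq2, but was called lower by library size (-1.60, adjusted p = 0.00720) and on log2(TPM + 1) (-1.07, adjusted p = 0.00352).

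**Figure D3:**
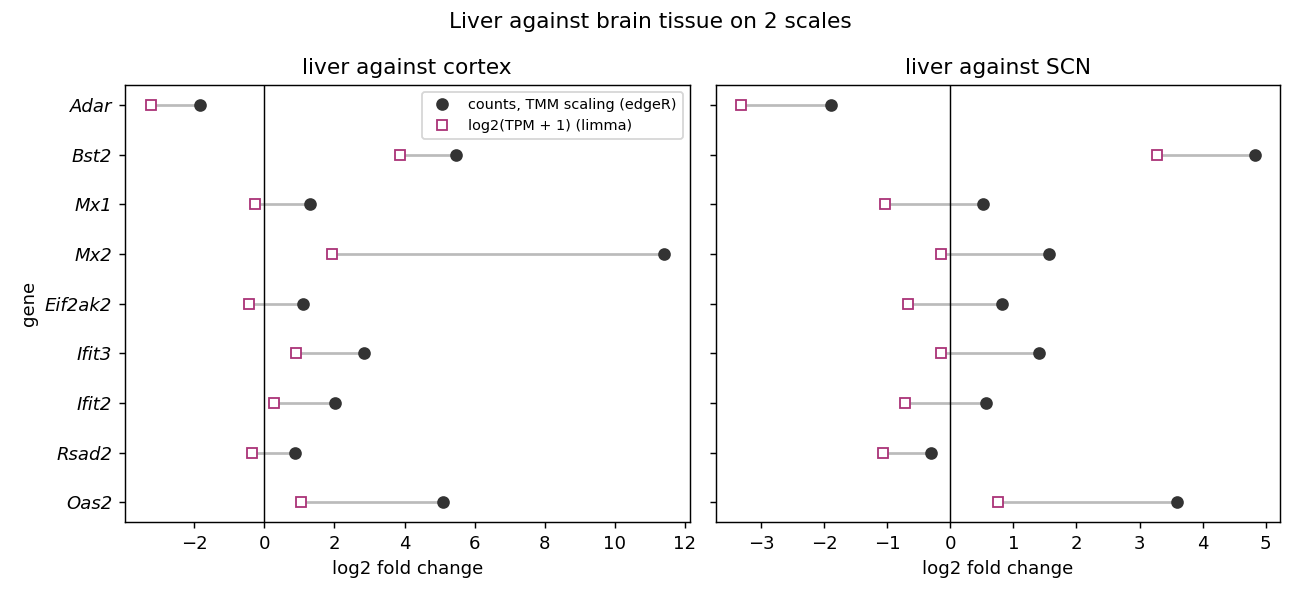
Log2 fold change of liver against cortex (left) and liver against SCN (right) for the 9 tested members. Filled circles are edgeR with TMM scaling and open squares limma on log2(TPM + 1). Grey lines join both values of a gene, and those that cross 0 are genes whose direction turned with the scale. The *Mx2* circle in the left panel, at 11.41, depends on the prior count because cortex was at 0.

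Between the brain tissues, all 9 tested members had a log2 fold change above 0 in SCN against cortex, with a median of 1.18 against 0.02 over all genes. Only *Mx2* was called, 1 of 9 higher and 0 lower, where 3.91% of all genes were called higher and 7.28% lower. Its mean level in SCN was 15.6-fold the mean floor of 3 counts per cortex library, which leaves out the division of reads among the *Mx* rows. The *duper* SCN, at 11.0 TPM, carried that mean, while the wild-type SCN had 0.491 TPM against a wild-type cortex floor of 0.443 TPM. The call was lost when either cortex library was left out. It was also lost when *Mx1* and *Mx2* were summed, a sum that *Mx1* dominates. *Ifit3* had a log2 fold change of 1.44 (SE 0.44, adjusted p = 0.0860), *Ifit2* of 1.44 (SE 0.45, adjusted p = 0.0932) and *Bst2* of 0.63 (SE 0.18, adjusted p = 0.0702). *Mx1* was at 0.78 (SE 0.28), *Rsad2* at 1.18 (SE 0.42), *Oas2* at 1.50 (SE 0.94), *Eif2ak2* at 0.29 (SE 0.24) and *Adar* at 0.06 (SE 0.15), with adjusted p from 0.131 to 0.834. The sum of *Mx1*, *Mx2* and LOC101844121 was higher in SCN by 1.01 (SE 0.25, adjusted p = 0.0489). LOC101844121, which is not a member, was itself called higher, at 1.60 (SE 0.26, adjusted p = 0.0115). The sum of *Mx1* and *Mx2* without it was not called, at 0.91 (SE 0.30, adjusted p = 0.104).

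The genotypes were compared across tissues in the same edgeR model. Here the tissues took the place of replicates, although all tissues of either genotype were drawn from a single set of animals. The genotype p-values and SEs therefore leave out the spread between animals. A difference between the wild-type and *duper* sets, such as sex, may recur in every tissue and cannot be fully told apart from genotype. *Cry1*, the mutated gene, had a log2 fold change of -1.69 (SE 0.17, adjusted p = 0.131) and was lower in the *duper* library of each tissue. No member was called higher or lower, where 0% of all genes were called higher and 0.00547% lower. All 9 tested members had a log2 fold change above 0, as did 52.9% of all genes. *Oas3*, the member left out by the filter on counts, was below 0 in the 5 alternatives that could test it, at -1.02 to -0.78, and was not called in any of them. The median of the 9 tested members was 0.72 against 0.01 over all genes, and 0.36 over 7 members without the liver libraries. At an unadjusted p under 0.05, 6 of 9 members were higher and 0 lower, where 1.8% of all genes were higher and 1.52% lower. The members were chosen with these results known, so these counts describe the list and are no independent evidence for it.

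Among single members, *Mx2* had the largest fitted difference, at 3.32 (SE 0.55, adjusted p = 0.558). It was called by DESeq2, by the likelihood ratio test and without a filter on low counts, and over the alternatives its adjusted p ran from 2.30e-05 to 1.00. The sum of *Mx1*, *Mx2* and LOC101844121, which does not depend on how reads were divided among them, was at 0.77 (SE 0.20, adjusted p = 0.998). *Mx1* alone was close to that sum, at 0.58 (SE 0.22, adjusted p = 0.998). LOC101844121 alone, which is not a member, was at 1.15 (SE 0.20, adjusted p = 0.452). *Oas2* was at 1.48 (SE 0.52), *Ifit2* at 1.16 (SE 0.34), *Ifit3* at 1.13 (SE 0.32) and *Eif2ak2* at 0.72 (SE 0.19), each with an adjusted p of 0.998. *Bst2* at 0.28 (SE 0.13), *Adar* at 0.21 (SE 0.12) and *Rsad2* at 0.11 (SE 0.33) were nearer to 0. The genes most abundant in these tissues were thus not those with the largest fitted genotype differences.

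**Figure D4:**
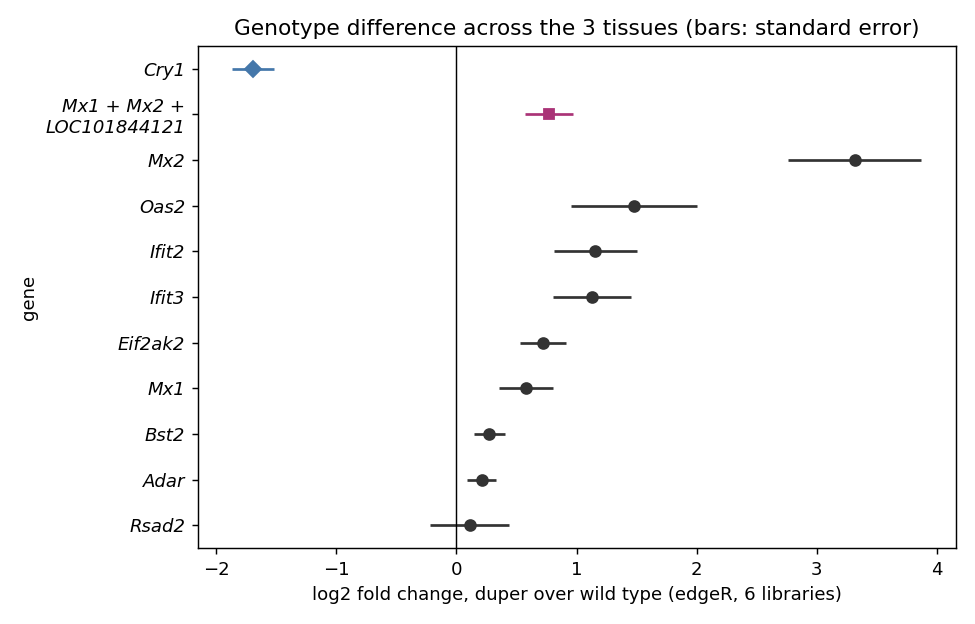
Log2 fold change of *duper* over wild type across the 3 tissues (horizontal axis) for the 9 tested members, the sum of 3 *Mx* rows, and *Cry1*. Points are edgeR estimates from 6 libraries and bars their standard errors, which leave out the spread between animals. No point passed the threshold, all members lay above 0, and *Cry1* lay at -1.69.

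Within a tissue there was no replicate, so the *duper* to wild-type ratio is described without a test. Log2 ratios of TPM + 1 were used for counts of genes, and a 95% Clopper-Pearson interval for the ratio without a pseudocount covers counting error only. In cortex, 7 members had a mean of at least 1 TPM, with a median log2 ratio of 0.47 against 0.02 over all such genes. *Ifit2* and *Eif2ak2* were past 0.58, so 2 of 7 were higher, where 8.24% of all genes were, and 0 lower, where 7.75% were. Without a pseudocount the log2 ratio was 2.21 (interval 0.86 to 3.92) for *Ifit2*, from 5 and 35 counts, and 0.84 (interval 0.30 to 1.41) for *Eif2ak2*, from 39 and 107 counts. *Mx1*, at 0.05 (interval -0.23 to 0.33), and *Adar*, at 0.05 (interval -0.04 to 0.15), were close to equal.

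In SCN, 8 members entered, with a median of 0.53 against 0.02. *Mx2*, *Ifit2*, *Ifit3* and *Eif2ak2* were past 0.58, or 4 of 8 higher, where 6.67% of all genes were, and 0 lower, where 7.7% were. *Ifit3* had a ratio of 3.37-fold, a log2 ratio of 1.75 (interval 1.23 to 2.27), and *Ifit2* one of 2.22-fold, a log2 ratio of 1.15 (interval 0.67 to 1.61). The *Mx2* row had a ratio of 22.4-fold from 17 and 88 counts, whereas the sum of the 3 *Mx* rows had 1.73-fold (log2 interval 0.66 to 0.92). *Mx2* made up only 1.06% (wild type) and 13.8% (*duper*) of that sum. The smaller ratio of the sum therefore cannot show whether the *Mx2* ratio came from the division of reads.

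In liver, 9 members entered, with a median of 0.46 against -0.10. *Mx1* and *Mx2* were past 0.58, or 2 of 9 higher, where 4.75% of all genes were, and *Oas3* was the 1 lower member, where 10.5% were. *Mx1* was 2.02-fold higher in the *duper* liver (log2 interval 0.92 to 1.10) and the sum of the 3 *Mx* rows 2.11-fold (log2 interval 1.01 to 1.16). *Oas3* was in the opposite direction, at 0.442-fold (log2 interval -1.25 to -1.10), while its neighbour *Oas2* was at 1.93-fold (log2 interval 0.62 to 1.29). *Bst2*, the most abundant member in liver, was at 0.987-fold (log2 interval -0.06 to 0.02). The OAS genes thus went in opposite directions in the same libraries.

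**Figure D5:**
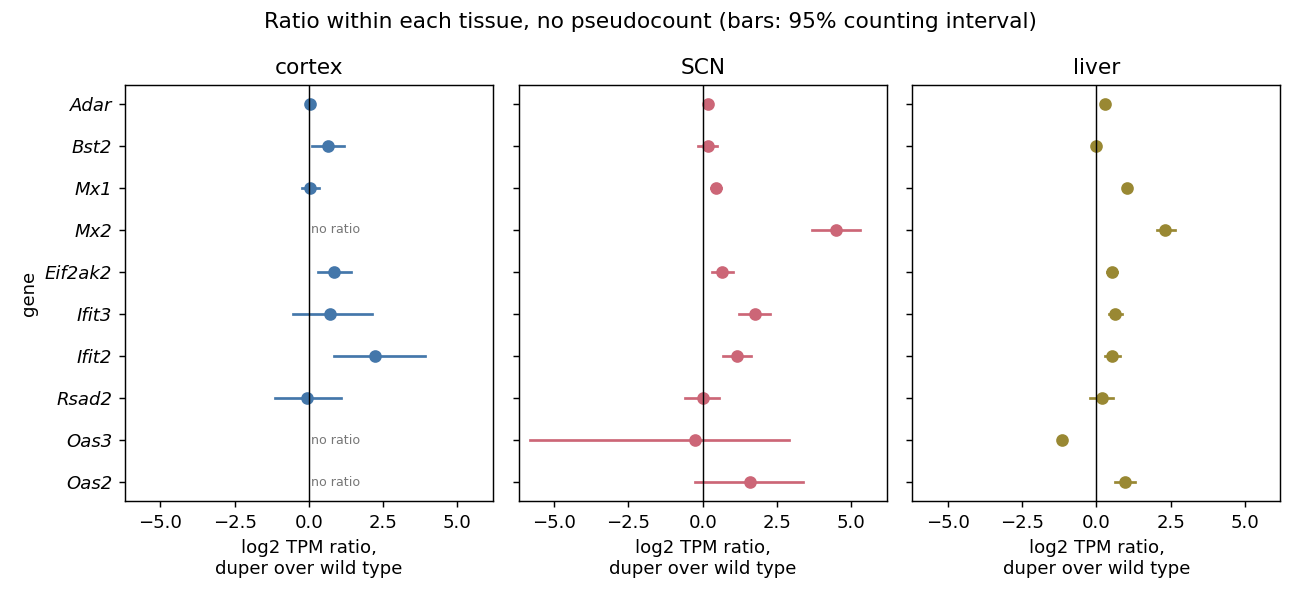
Log2 ratio of TPM, *duper* over wild type, within cortex, SCN and liver, without a pseudocount. Each point compares 1 library with 1 library, bars are 95% counting intervals, and no ratio is shown where both libraries had 3 counts or fewer. *Ifit2*, *Ifit3*, *Eif2ak2* and *Adar* lay right of 0 in each tissue, and *Oas3* lay left of 0 in liver.

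Of the 8 tested members with counts in every tissue, 6 had a ratio above 0 in all 3 tissues, *Mx1*, *Ifit2*, *Ifit3*, *Oas2*, *Eif2ak2* and *Adar*, where 10.1% of such genes did. The exceptions were *Rsad2*, at -0.04 in cortex and below 0 in SCN, and *Bst2*, at -0.02 in liver. *Mx2* had no counts in cortex and was above 0 in SCN and liver. Not all of the ratios above 0 were clear of counting error. The *Oas2* ratio rested on 0 and 3 counts in cortex, at or under the floor, and on 7 and 6 counts in SCN. In cortex the counting intervals of *Mx1*, *Ifit3* and *Adar* also held 0.

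No marker of another cell type was called in the genotype comparison, but the markers of some cell types lay to one side of 0. Of 15 macrophage, microglia and Kupffer cell markers in the files, 13 were tested and 13 had a log2 fold change above 0, against 52.9% of all genes. At an unadjusted p under 0.05, 6 were higher and 0 lower, against 1.8% and 1.52% of all genes. The summed level of the 15 ran from 330.4 to 755.1 TPM in the wild-type and from 374.5 to 1237 TPM in the *duper* libraries. It was higher in the *duper* library of each tissue, and at most 2 of the 15 were at 0 in any library. The 4 erythroid markers in the files were all below 0, with summed levels of 9.18 to 20.4 TPM over the wild-type libraries against 3.52 to 8.02 TPM over the *duper* ones. Of them, *Epb42*, at -0.10 (SE 0.63), was higher in the *duper* library in cortex and SCN. The 5 cortical projection neuron markers and the 2 tested oligodendrocyte markers were also all below 0, and the 3 tested astrocyte markers all above 0. Lymphocyte and plasmacytoid dendritic cell markers summed to 6.17 to 31.0 TPM (wild type) and 7.36 to 35.6 TPM (*duper*), with 0 of 6 at an unadjusted p under 0.05. Their part in the members' values was not tested, and more cells of a type cannot be told apart from more RNA per cell in bulk tissue.

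No gene of the other pathway lists was called in the edgeR comparison of genotypes, which called 1 gene in all, against 41 with DESeq2's size factors. The study, using DESeq2, reported *Irf7*, *Isg15* and *Uba7* as higher in *duper* hamsters. Of 60 symbols of other interferon-stimulated genes, 40 were in the files and 39 were tested. Of these, 32 had a log2 fold change above 0, against 52.9% of all genes, with a median of 0.28. At an unadjusted p under 0.05, 16 were higher and 0 lower, against 1.8% and 1.52% of all genes. The list was chosen with earlier results of these data known. The lowest p belonged to *Isg15*, a ubiquitin-like modifier, at 2.05 (SE 0.36, adjusted p = 0.486), and *Uba7*, its activating enzyme, at 0.96 (SE 0.18, adjusted p = 0.619). The most abundant gene of that list, *Shfl*, was at -0.04 (SE 0.16), and the least abundant, *Slfn5*, at 0.41 (SE 0.60). All 16 genes for interferon receptors and signalling were tested, with a median of 0.09 and 4 higher and 0 lower at an unadjusted p under 0.05. *Irf7*, a transcription factor of the response, was at 1.25 (SE 0.16, adjusted p = 0.204) and *Irf9* at 0.36 (SE 0.11, adjusted p = 0.998), whereas *Jak1*, the most abundant, was at 0.11 (SE 0.11) and *Socs1*, the least abundant and a feedback inhibitor, at -0.50 (SE 0.59).

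Among interferon ligand genes, 5 of 9 symbols were in the files and 1 was tested, *Ifnl3*, at -0.31 (SE 0.47, adjusted p = 0.998) and 0.537 to 1.96 TPM. *Ifnb1* was listed at 0 in all 6 libraries. The 8 genes for partners and targets of PKR and ADAR1 had a median of 0.08, with 0 at an unadjusted p under 0.05. *Dnajc3*, an inhibitor of PKR and the most abundant of them, was at 0.18 (SE 0.17), *Prkra*, an activator of PKR, at 0.16 (SE 0.19), and *Adarb2*, the least abundant, at 0.20 (SE 0.25). These partners thus stood nearer to the median of all genes than *Eif2ak2* did.

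The profile of the members over the 6 libraries was compared, as a description, with that of every gene averaging 1 TPM or more, which 9 members did. Each profile was log2(TPM + 1) centred on its own mean, and the distance was the root mean square difference from the members' median profile. *Ifit2* was the closest member, at 0.161, and *Oas3* at 1.99, *Bst2* at 1.74 and *Adar* at 1.57 were the farthest, so the 3 members with strong tissue patterns share little with the rest. Of 18549 genes, the 5 closest were LOC110341421 (0.152), LOC101829188 (0.195), LOC121138711 (0.195), *Cyth4* (0.200) and *Trim16* (0.200). Apart from *Trim16* in liver, with 2.96 TPM for wild type against 2.51 TPM for *duper*, each of them was higher in the *duper* library of each tissue, a direction that follows from their choice by closeness to the members' median, which was itself higher in each *duper* library.

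Tissue labels were checked against markers. Cortical projection neuron markers summed to 1040 and 947.8 TPM in the wild-type and *duper* cortex and 22.4 and 17.0 TPM in the SCN, and of 5 SCN markers in the files, *Nms* (33.5 and 13.4 TPM), *Six6* and *Lhx1* (4.94 to 8.79 TPM over both) were highest in the SCN libraries. The other two were not, since *Rgs16* had 24.8 and 23.2 TPM in SCN against 125.1 and 135.0 TPM in liver, and *Prok2* was below 1 TPM in every library. Hepatocyte markers summed to 135949 and 144872 TPM in liver, against at most 2559 TPM in brain, of which *Ttr*, also a choroid plexus gene, made up 2505 TPM. The total estimated count ran from 6788947 in the wild-type cortex to 85748562 in the *duper* liver, so values of the cortex libraries and the *duper* SCN rest on the fewest reads.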

How the data were processed

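RNA was sequenced with a stranded mRNA kit. The authors assigned reads to transcripts of the MesAur2.0 reference with Kallisto, whose version is not given in the sources used here, and summed the transcripts of a gene with tximport. The deposited gene tables hold estimated counts, without normalization, and TPM, and there is for each library a table of 67818 transcripts with length, estimated count and TPM. Genotype and tissue came from the titles.

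Estimated counts were rounded and went into edgeR 4.0.16 (R 4.3.3, TMM, filterByExpr by genotype, quasi-likelihood F test, tissue and genotype as terms), with Benjamini-Hochberg adjustment. With 6 libraries, 2 residual degrees of freedom were left, so tissues stood in for replicates of a genotype. Standard errors were derived from the log2 fold change and its F statistic. DESeq2 1.42.0, the study's tool, and limma 3.58.1 were alternatives. TPM ratios used a pseudocount of 1, and intervals (Clopper-Pearson, scipy 1.17.1) cover counting error only. Python 3.11.15 and matplotlib 3.10.9 were used. The genotype tests of edgeR (quasi-likelihood and likelihood ratio) and DESeq2 were tried on simulated counts.

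All 10 genes are named. From other lists, called genes, the 2 with the lowest unadjusted p in the genotype comparison, and the most and least abundant are named, and the 5 nearest profiles. The members and lists were chosen with earlier results of these data known. Symbols were matched to the RefSeq table of BCM_Maur_2.0 (31590 of 31593 genes, and 9 of 10 members, all but *Mx2*), used only for names and neighbours. Promoter and protein sequences were not analysed here.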

Additional observations from a re-analysis of the deposited data

How the results depend on the processing

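In the genotype comparison the count of called members, 0, became 1 (*Mx2*) with DESeq2 under size factors and under length offsets, without a filter beyond 1 count, and with the likelihood ratio test. The members' median log2 fold change, 0.72, was 0.27 over the 5 members with at least 10 counts in every library, and 0.36 to 0.70 on leaving out 1 tissue. *Rsad2* turned to -0.042 without liver and ran up to 0.15 on leaving out another tissue. Over all genes, the edgeR test called 1 gene, DESeq2 41 and 37, no filter 48, the likelihood ratio test 91, robust estimation 2, limma on log2(TPM + 1) 2, thinning to the smallest library 6, and leaving out cortex, SCN or liver 2, 34 and 22.

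In SCN against cortex the 1 called member became 3 by library size, 5 by the likelihood ratio test, 0 with at least 10 counts, limma on log2(TPM + 1), no genotype term, or *Mx1* and *Mx2* summed, and 0 to 5 on leaving out 1 library. *Adar* ran from -0.070 without the *duper* cortex to 0.21 without the wild-type cortex. Over all genes, 2045 calls became 267 to 3573 on leaving out 1 library, and 3188 with the likelihood ratio test.

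In liver against cortex the 8 calls became 5 by library size and by limma with either pseudocount, and 4 with at least 10 counts. Over all genes, 5836 calls higher and 6132 lower became 2679 and 10286 by library size, and 2170 and 11932 on log2(TPM + 1). On log2(TPM + 0.1) they were 2160 and 12163, and with at least 10 counts 4634 and 4350. *Mx1* turned to -0.28 on log2(TPM + 1) and -0.29 on log2(TPM + 0.1), *Rsad2* to -0.34 and -0.66, and *Eif2ak2* to -0.43 and -0.48; by library size *Rsad2* turned to -0.25 and *Eif2ak2* to -0.017. In liver against SCN the 6 calls became 3 with at least 10 counts or no genotype term. By library size the 5 called were *Adar*, *Bst2*, *Oas2*, *Mx1* and *Rsad2*, and on log2(TPM + 1) *Mx1*, *Ifit2*, *Rsad2* and *Eif2ak2* were called lower in liver. The all-gene calls there, 5824 higher and 6007 lower, became 2322 and 11107 by library size, and 2028 and 12031 on log2(TPM + 1). With at least 10 counts they were 4614 and 4202, and without the genotype term 5887 and 6070. *Mx1* turned to -0.79 by library size, -1.04 on log2(TPM + 1) and -1.07 on log2(TPM + 0.1), *Ifit2* to -0.72, -0.72 and -0.97, and *Eif2ak2* to -0.48, -0.67 and -0.74. *Ifit3* turned to -0.15 with either pseudocount and *Mx2* to -0.14 on log2(TPM + 1). The scalings shift the median of all genes in liver by -1.14 to -1.51, and fewer members pass stricter filters. The cause of the other changes was not tested.

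The labels give no replicate numbers, and the tissue and genotype terms already match the libraries of a tissue and of a genotype. Without the tissue term, 0 members were called between genotypes. Depth limits *Mx2*, *Oas2* and *Oas3* in cortex, where counts were 0 to 3. Summed *Mx* rows were added after seeing the data.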
